A study of Mus musculus with 15 samples.

Results

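The glycolysis and pentose phosphate genes described here are 32 mouse genes, taken by name from the array's own gene annotation: the glucose carrier Slc2a1, the enzymes from hexokinase to pyruvate kinase, the Pfkfb regulators, the genes that handle pyruvate and lactate, and enzymes of the pentose phosphate pathway. All 32 were on the array, out of 36282 gene names, and 31 of them were among the 22908 genes bright enough to test. Ldhb, the lactate dehydrogenase subunit typical of heart, was not well above background on any of the 15 arrays and was not tested. RNA came from LSZ2 and LSZ4, mouse non-small cell lung cancer lines, transduced with a short hairpin RNA. The 7 control arrays carried shGFP in the pLKO.1 vector (1 LSZ2 and 2 LSZ4 arrays) or shLacZ in the LL37 vector (2 arrays of each line), and the 8 knockdown arrays carried shSiva1 or shSiva2, hairpins against the p53 target gene Siva, in pLKO TRC2.0 (2 arrays of each hairpin in each line). All but the shLacZ cells were selected with puromycin for 3 days, and RNA was taken 2 days after plating at subconfluent density.

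Glycolysis splits glucose into pyruvate, and tumour cells commonly turn much of that pyruvate into lactate even when oxygen is present. Hexokinases trap glucose, phosphofructokinase commits it, and the Pfkfb enzymes make or remove the sugar bisphosphate that activates phosphofructokinase. Lactate leaves cells through monocarboxylate carriers, of which Slc16a3 encodes MCT4, known as the export carrier of highly glycolytic and hypoxic cells. The pentose phosphate pathway branches off after hexokinase and supplies NADPH and ribose.

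Siva1, the targeted gene, was lower on every shSiva array than on every control array. Its log2 value, the log2 of the probe signal over the 75th percentile of its array, ran from 5.27 to 6.49 with a median of 5.58 on the 7 control arrays and from 2.30 to 4.09 with a median of 3.30 on the 8 shSiva arrays. It fell by 2.52 on the log2 scale (SE 0.26, limma adjusted p = 3.19e-05). The controls shared 1 slide and the knockdowns a different one, so knockdown, slide and vector cannot be told apart in any comparison with controls. The shSiva1 and shSiva2 arrays shared a slide and a vector but lay in different rows of the slide, so hairpin and row cannot be told apart, and the lines lay in different columns. All 6 epithelial markers were well above background on at least 14 arrays, with a summed level of 1194 to 2935 multiples of the array's 75th percentile. Epcam was higher on shSiva than control arrays (0.68, limma adjusted p = 0.00988) and lower in LSZ4 than LSZ2 (-2.80). Krt8 (0.58) and Krt18 (0.64) were higher in LSZ4. Cdh1 (-1.01, limma adjusted p = 0.00243) and Krt7 (-0.79, adjusted p = 0.0308) were lower with shSiva1 than with shSiva2. These were the only calls among the 6 in these comparisons. Of 10 blood, endothelial and fibroblast markers, 4 to 7 were well above background on an array, with a summed level of 4.25 to 14.2. Cdh5 and Pdgfrb were so on 0 arrays, while Cd3e, Col1a2, Kdr and Pecam1 were on all 15. The array's 75th percentile of signal ran from 428 to 1029.

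Averaged over both Siva hairpins and both lines, 1 gene of the pathway passed the test. Of the 31 measured genes, 1 passed an adjusted p of 0.05 in limma, against 9.97% of all genes tested (4.29% higher and 5.68% lower), and it was lower: Eno3, the enolase typical of muscle (probe at chr11:70475953-70476012 of mm9). The median change of the 31 genes was -0.18 on the log2 scale, beside -0.12 over all genes tested, and 22 of the 31 were below 0. Under quantile normalization the median over all genes was -0.027 and that of the 31 genes -0.011, and under normexp background correction -0.033 and -0.26.

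Eno3 had log2 values of 6.78, 6.72 and 6.99 on the LSZ2 control arrays and 6.12, 6.47, 5.57 and 5.44 on the LSZ2 shSiva arrays. In LSZ4 the controls had 7.84, 7.88, 6.79 and 7.50, and the shSiva arrays 6.20, 6.82, 5.83 and 6.29. Every LSZ2 knockdown array was below every LSZ2 control, whereas in LSZ4 1 shSiva1 array (6.82) lay just above the lowest control (6.79). Eno3 fell by 1.09 on the log2 scale (SE 0.21, limma adjusted p = 0.00416), a 2.12-fold lower signal. In RNA from a whole culture, fewer expressing cells and less RNA per cell cannot be told apart. With 1 mean for each of the 8 line and hairpin groups in place of 15 arrays, the change was -1.07 and no longer passed (adjusted p = 0.0807). Of the 4 muscle markers, Ckm, Des and Myog were well above background on 0 of the 15 arrays, and Acta1 on 1 of 7 control and 6 of 8 shSiva arrays. Acta1 had 0.41 in the pooled comparison (adjusted p = 0.488) and rose by 1.02 with shSiva2 (limma adjusted p = 0.0419). The part of these markers in the Eno3 result was not tested.

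Genes that came close in the pooled comparison were Pfkl, the liver-type phosphofructokinase subunit, with a change of -0.75 (SE 0.23, limma adjusted p = 0.0518), Pfkfb3 with 0.68 (SE 0.22, adjusted p = 0.0628) and Pgk1, phosphoglycerate kinase, with -0.42 (SE 0.14, adjusted p = 0.0674). With quantile normalization in place of the 75th percentile, Pfkl (-0.64, adjusted p = 0.026) and Pfkfb3 (0.70, adjusted p = 0.0493) passed. Over the 28 alternatives Pfkl passed in 8, Pfkfb3 in 6 and Pgk1 in 4. The other 27 genes had adjusted p-values above these.

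The heat map of all 31 genes by array shows the genes that differed between the hairpins.

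**Figure D1:**
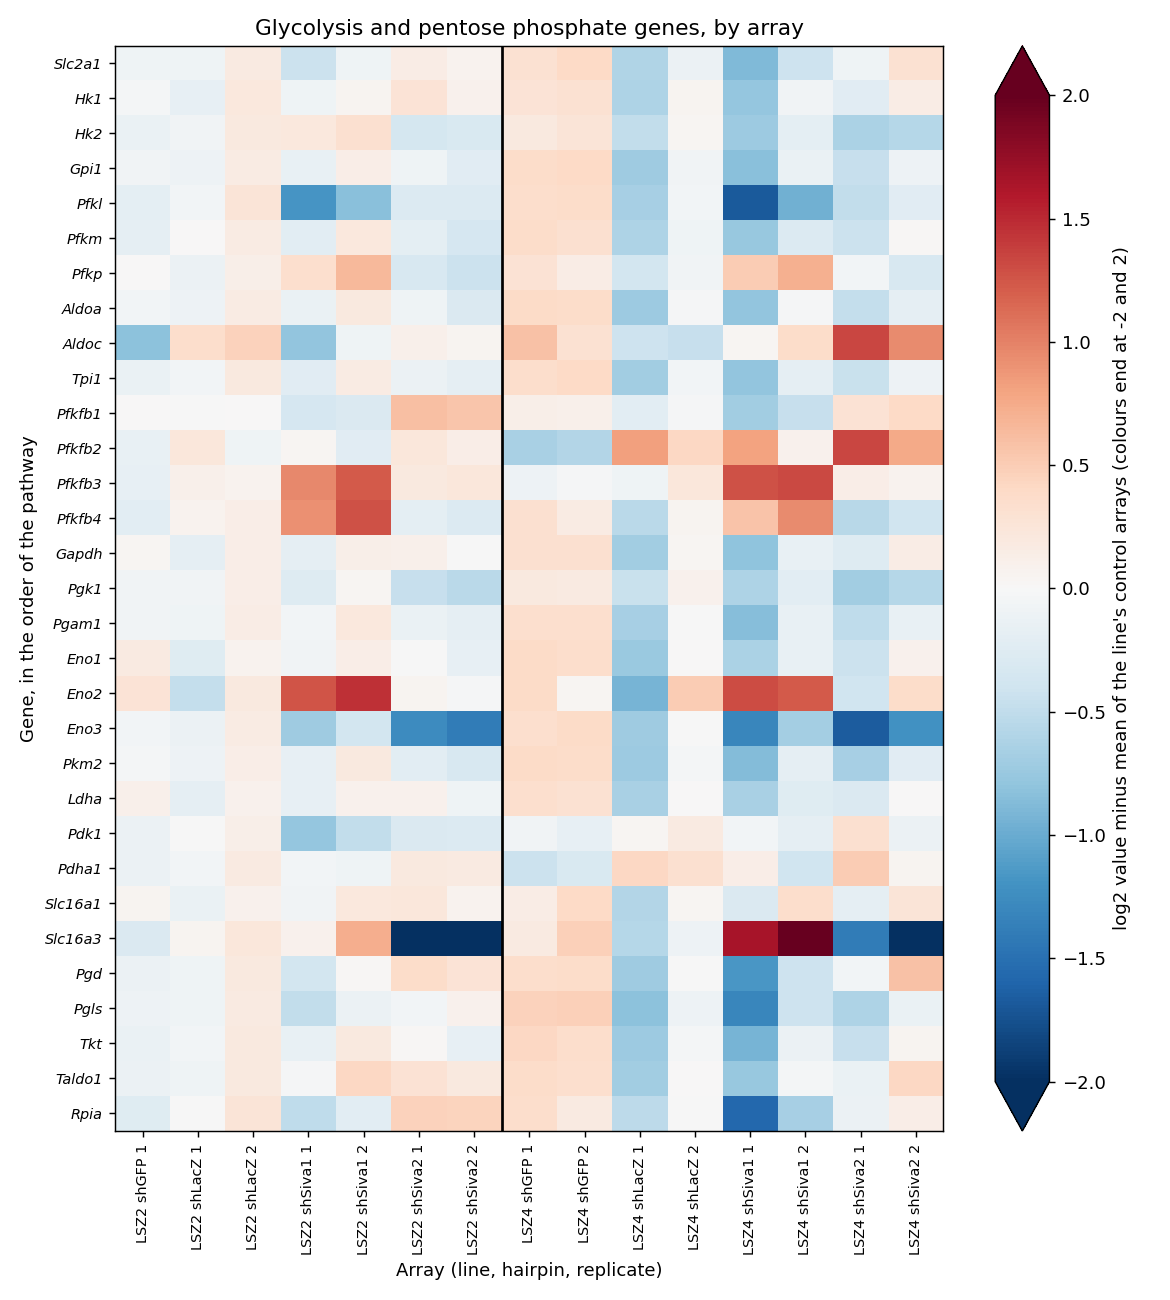
Heat map of the 31 measured genes (rows, in pathway order) on the 15 arrays (columns, LSZ2 left of the line and LSZ4 right of it); colour is the log2 value minus the mean of the control arrays of that line, red higher and blue lower. Slc16a3 is near white in 1 LSZ2 shSiva1 column, red in the other shSiva1 columns and blue in the shSiva2 columns, while Eno3 is blue in every shSiva column.

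Taken apart, the hairpins differed at 9 genes of the pathway, and Slc16a3 and Pfkfb1 changed in opposite directions. With shSiva1, 9 of 31 genes passed in limma, against 25.9% of all genes tested (10.2% higher and 15.7% lower): Pfkp, Pfkfb3, Pfkfb4, Eno2 and Slc16a3 rose, and Pfkl, Pfkfb1, Eno3 and Rpia fell. With shSiva2, 4 of 31 passed, against 12.2% of all genes (5.99% higher and 6.25% lower): Pfkfb1 rose, and Pgk1, Eno3 and Slc16a3 fell. The direct test of shSiva1 against shSiva2 called 9 of 31 genes, against 19.5% of all genes tested (9.43% higher and 10.1% lower), with Pfkp, Pfkfb3, Pfkfb4, Eno2 and Slc16a3 higher with shSiva1 and Pfkl, Pfkfb1, Pgd and Rpia lower. These counts are 29.0%, 12.9% and 29.0% of the 31 genes, near the shares over all genes for the comparisons with control. Those comparisons use the same 7 control arrays. Under quantile normalization the shSiva1 against shSiva2 test called 20 genes (15 higher and 5 lower), against 26.9% of all genes, and shSiva2 against control called 11 (2 higher and 9 lower), against 18.3% of all genes.

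**Figure D2:**
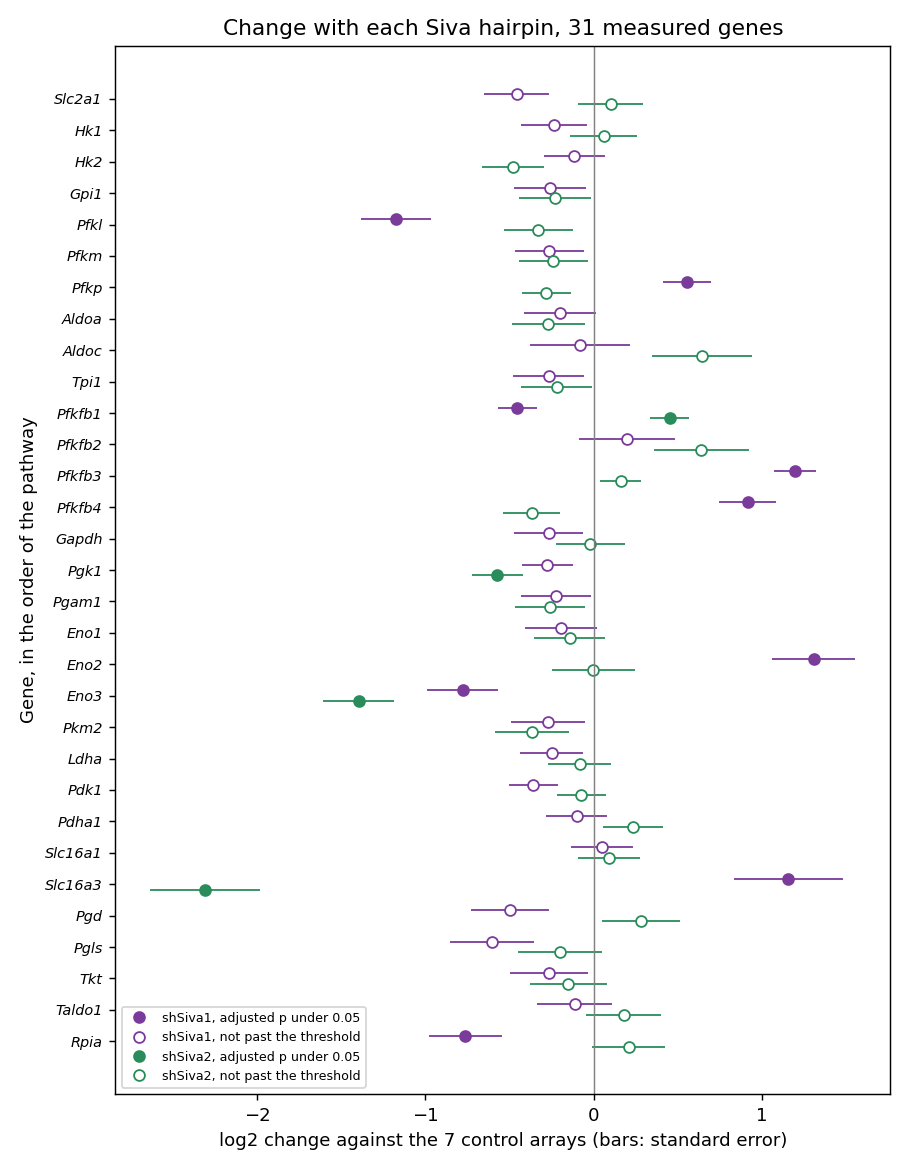
Log2 change of each of the 31 measured genes (rows) with shSiva1 (purple) and shSiva2 (green) against the 7 control arrays; bars are standard errors, and filled points passed an adjusted p of 0.05 in limma. The points of Slc16a3 lie at 1.16 and -2.31, on opposite sides of 0, and those of Pfkfb1 at -0.45 and 0.45.

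Set against the controls of each line, Eno2, Pfkfb3, Pfkfb4 and Pfkp had every shSiva1 array above (4 of 31, beside 8.85% of all genes tested) and Pfkfb1 and Pfkl every one below (11.1% of all genes). Every shSiva2 array lay above the controls for Pfkfb1 (7.43% of all genes) and below them for Hk2, Pgk1, Eno3 and Slc16a3 (6.88%). Every shSiva1 array lay below every shSiva2 array in each line for Slc2a1, Aldoc, Pfkl, Pfkfb1, Pgd and Rpia (21.8% of all genes).

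The 5 genes higher with shSiva1 than with shSiva2 also had every shSiva1 array above every shSiva2 array within each line, as did 13.2% of all genes tested. Their promoters are shown because this is the larger group of members called in 1 direction between hairpins on 1 slide. The 4 genes called lower are counted after them. Each line gives the 250 bases before an annotated start, from RefSeq on GRCm38.p6, with the hypoxia response core in capitals, that is ACGTG or GCGTG on either strand (CACGT or CACGC on the other). Entries were found for all 32 genes.
Slc16a3, chr11:120948817-120949066, plus strand: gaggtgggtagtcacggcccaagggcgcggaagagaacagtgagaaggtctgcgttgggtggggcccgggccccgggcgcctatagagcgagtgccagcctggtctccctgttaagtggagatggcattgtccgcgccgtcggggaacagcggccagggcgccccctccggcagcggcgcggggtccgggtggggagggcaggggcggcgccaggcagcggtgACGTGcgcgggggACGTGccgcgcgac
Pfkfb3, upstream start, chr2:11553930-11554179, minus strand: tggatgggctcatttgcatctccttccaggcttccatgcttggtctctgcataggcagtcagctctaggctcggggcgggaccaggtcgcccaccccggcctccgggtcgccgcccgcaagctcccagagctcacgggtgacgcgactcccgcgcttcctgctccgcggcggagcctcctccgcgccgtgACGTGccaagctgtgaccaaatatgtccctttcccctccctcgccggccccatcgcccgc
Pfkfb3, downstream start, chr2:11502091-11502340, minus strand: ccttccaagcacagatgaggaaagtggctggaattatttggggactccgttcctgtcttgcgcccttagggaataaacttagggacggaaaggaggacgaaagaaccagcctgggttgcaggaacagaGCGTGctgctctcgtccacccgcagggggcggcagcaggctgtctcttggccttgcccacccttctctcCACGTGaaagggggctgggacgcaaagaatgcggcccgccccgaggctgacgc
Pfkfb4, chr9:108991652-108991901, plus strand: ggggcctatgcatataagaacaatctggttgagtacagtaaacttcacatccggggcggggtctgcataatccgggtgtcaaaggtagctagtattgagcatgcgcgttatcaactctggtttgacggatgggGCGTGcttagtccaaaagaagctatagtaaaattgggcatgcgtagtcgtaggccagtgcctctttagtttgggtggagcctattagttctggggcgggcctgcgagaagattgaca
Pfkp, chr13:6648772-6649021, minus strand: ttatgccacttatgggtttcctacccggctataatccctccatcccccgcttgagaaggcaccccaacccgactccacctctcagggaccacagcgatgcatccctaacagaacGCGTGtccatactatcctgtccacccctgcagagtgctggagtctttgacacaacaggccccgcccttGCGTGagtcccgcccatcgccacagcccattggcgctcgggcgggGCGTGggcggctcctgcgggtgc
Eno2, chr6:124769674-124769923, minus strand: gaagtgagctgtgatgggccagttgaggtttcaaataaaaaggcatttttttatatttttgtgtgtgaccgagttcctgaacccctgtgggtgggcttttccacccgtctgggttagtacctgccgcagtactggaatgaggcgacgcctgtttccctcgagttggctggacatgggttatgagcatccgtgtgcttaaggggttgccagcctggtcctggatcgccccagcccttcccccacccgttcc
Slc16a3, Pfkfb3, Pfkfb4 and Pfkp held the core and Eno2 did not. The downstream start of Pfkfb3 also held CACGTG, the E-box bound by Myc and Mondo family factors, whose letters contain ACGTG. Over all 51 promoters of the 32 genes, 39 (76.5%) held the core, beside 38.6% of the 32851 promoters of the same length in the table, and 5 (9.8%) held CACGTG, beside 6.02%. Counted by gene, 29 of the 32 (90.6%) had the core before at least 1 start, beside 41.5% of the 27025 genes in the table. The core contains CG, and the CG content of the promoters was not matched in these shares. The 4 genes lower with shSiva1 than with shSiva2 were among the 29: Pfkl and Rpia at their 1 start, Pgd at 1 of 2 and Pfkfb1 at 1 of 4. A match describes letters in this window and no binding was measured.

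Slc16a3, the lactate exporter (probe at chr11:120820023-120820082 of mm9), gave the widest difference between the hairpins. In LSZ2 its log2 values were 2.00, 2.35 and 2.52 on the control arrays, 2.38 and 3.01 with shSiva1, and -0.26 and -0.18 with shSiva2. In LSZ4 they were 1.59, 1.89, 0.84 and 1.30 on the controls, 3.05 and 3.44 with shSiva1, and 0.01 and -1.57 with shSiva2. In both lines the shSiva2 arrays lay below every control; the shSiva1 arrays lay above every control in LSZ4 and overlapped the controls in LSZ2.

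Slc16a3 rose by 1.16 with shSiva1 (SE 0.33, limma adjusted p = 0.0171), 2.23-fold, and fell by 2.31 with shSiva2 (SE 0.33, limma adjusted p = 0.000232), 4.96-fold lower. The hairpins differed by 3.47 (SE 0.37, limma adjusted p = 7.19e-06), which is 11.1-fold. Averaged over the hairpins the change was -0.58 and did not pass (SE 0.70, adjusted p = 0.648). On the control slide, where shGFP lay in row 1 and shLacZ in row 2, shLacZ minus shGFP was -0.14 (SE 0.41, adjusted p = 0.8). These controls also differed in vector and puromycin selection, so the value cannot isolate row. The lines went opposite ways, with means of 2.00 (shGFP) and 2.43 (shLacZ) in LSZ2 and 1.74 and 1.07 in LSZ4. The shSiva1 rise was lost without either LSZ4 shSiva1 array (adjusted p up to 0.0798), and the shSiva2 fall passed in all 28 alternatives. A 2nd probe of the gene, offset by 7 bases, gave 1.17 and -2.24. Slc16a1, which encodes the more general lactate carrier MCT1, had changes of 0.05 and 0.09 with the hairpins, and neither passed.

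**Figure D3:**
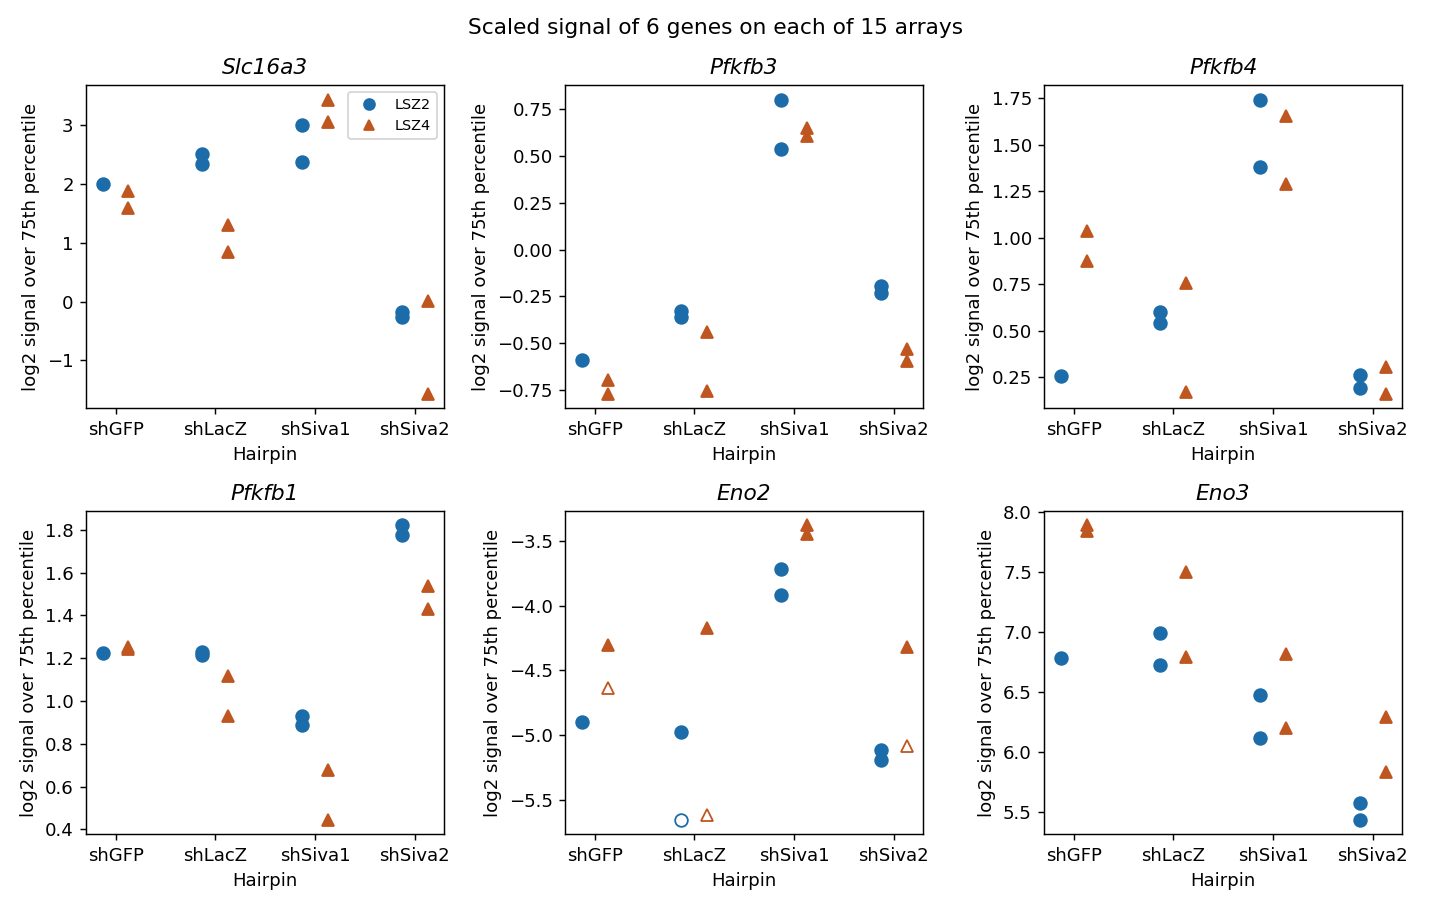
Log2 value (signal over the array's 75th percentile) of 6 genes on each of the 15 arrays by hairpin; circles are LSZ2, triangles LSZ4, and open symbols were not well above background. Slc16a3 ranges from 2.38 to 3.44 with shSiva1 and from -1.57 to 0.01 with shSiva2, and Pfkfb1 shows the opposite order.

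The Pfkfb genes encode the bifunctional regulators of phosphofructokinase, and with shSiva1 2 of the 4 rose and 1 fell, beside 25.9% of all genes called, while with shSiva2 1 rose, beside 12.2%. Pfkfb3, the isoform with the strongest kinase bias (probe at chr2:11393453-11393512 of mm9), had log2 values of -0.59, -0.33 and -0.36 on the LSZ2 controls, and -0.77, -0.70, -0.76 and -0.44 on the LSZ4 controls. With shSiva1 it had 0.54 and 0.80 in LSZ2 and 0.61 and 0.65 in LSZ4, above every control of either line. With shSiva2 it had -0.23 and -0.19 in LSZ2 and -0.53 and -0.60 in LSZ4. Pfkfb3 rose by 1.20 with shSiva1 (SE 0.12, limma adjusted p = 4.9e-06), 2.29-fold, while the change with shSiva2 was 0.16 (SE 0.12, adjusted p = 0.496). The hairpins differed by 1.04 (SE 0.14, limma adjusted p = 6.31e-05). A 2nd Pfkfb3 probe, well above background on 8 arrays, gave 0.62 with shSiva1, -0.41 with shSiva2 and a hairpin difference of 1.04. None of these passed in limma (adjusted p = 0.217, 0.557 and 0.0882).

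Pfkfb4, a further isoform and known hypoxia target, also rose with shSiva1. Its log2 values with shSiva1 were 1.38 and 1.74 in LSZ2 and 1.29 and 1.65 in LSZ4. The controls ran from 0.17 to 1.04 with a median of 0.60, and shSiva2 gave 0.26 and 0.19 in LSZ2 and 0.16 and 0.30 in LSZ4. Pfkfb4 rose by 0.92 with shSiva1 (SE 0.17, limma adjusted p = 0.00116), and shSiva2 gave -0.37 (SE 0.17, adjusted p = 0.201). The difference of the hairpins was 1.29 (SE 0.19, limma adjusted p = 0.00018).

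Pfkfb1, the isoform typical of liver and muscle, fell with shSiva1 and rose with shSiva2. It had 1.22, 1.21 and 1.23 on the LSZ2 controls, 0.89 and 0.93 with shSiva1, and 1.82 and 1.77 with shSiva2. In LSZ4 it had 1.25, 1.24, 0.93 and 1.12 on the controls, 0.45 and 0.68 with shSiva1, and 1.43 and 1.54 with shSiva2. No shSiva1 array reached the controls from below in either line, and every shSiva2 array lay above them. The change was -0.45 with shSiva1 (SE 0.12, limma adjusted p = 0.0116) and 0.45 with shSiva2 (SE 0.12, limma adjusted p = 0.0201), a difference of -0.90 (SE 0.13, limma adjusted p = 0.000158). With 8 group means the fall with shSiva1 did not pass (adjusted p = 0.194). The rise with shSiva2 did not pass in 6 of 28 alternatives, 3 of which left out an shSiva2 array (adjusted p up to 0.0766 for those). Pfkfb2, the isoform typical of heart, had 0.20 and 0.64 with the hairpins, and neither passed.

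Among the phosphofructokinase subunits, Pfkl and Pfkp moved in opposite directions with shSiva1. Pfkl, the liver type, ran from 3.03 to 4.33 with a median of 3.47 on the 7 control arrays, from 2.04 to 2.99 with shSiva1 and from 2.95 to 3.73 with shSiva2. It fell by 1.17 with shSiva1 (SE 0.21, limma adjusted p = 0.000715) and every shSiva1 array was below every control of its line. The hairpins differed by -0.85 (SE 0.23, limma adjusted p = 0.017). That difference did not pass in 4 of 28 alternatives: without LSZ4 shSiva1 replicate 1 or LSZ4 shSiva2 replicate 2 (adjusted p up to 0.0607), with a random block for line and hairpin (adjusted p = 0.0508) and with 8 group means (adjusted p = 0.113). Pfkm, the muscle type, had -0.26 and -0.24 with the hairpins and neither passed.

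Pfkp, the platelet type, ran from 0.80 to 1.53 with a median of 1.04 on the controls, from 1.26 to 1.95 with shSiva1 and from 0.49 to 1.18 with shSiva2. It rose by 0.56 with shSiva1 (SE 0.14, limma adjusted p = 0.0108), and the hairpins differed by 0.84 (SE 0.16, limma adjusted p = 0.00158). Another Pfkp probe gave -0.12 with shSiva1 and a difference of -0.32, neither past the threshold, so its probes disagree in direction. With the mean of all probes the rise was 0.22 (adjusted p = 0.286) and the hairpin difference 0.26, and with normexp background correction the rise was 0.42 (adjusted p = 0.0783).

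Of the remaining upper glycolytic genes, none passed with either hairpin. Hk2, the inducible hexokinase, had values from 1.88 to 1.98 with shSiva2, all below the controls of their line; its change was -0.48 (SE 0.18, adjusted p = 0.11). Slc2a1, the basal glucose carrier GLUT1, had -0.46 with shSiva1 (SE 0.19, adjusted p = 0.0948) and 0.10 with shSiva2. Aldoc, the brain-type aldolase, had -0.08 and 0.64. Hk1, Gpi1, Aldoa and Tpi1 had changes between -0.27 and 0.06 with either hairpin. Dimmer Hk1 probes gave -0.34 and -0.35 with shSiva1 and -0.45 and -0.47 with shSiva2, none past the threshold.

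In lower glycolysis the enolase genes split. Eno2, the neuronal enolase (probe at chr6:124710388-124710447 of mm9), had log2 values of -3.92 and -3.72 in LSZ2 and -3.38 and -3.45 in LSZ4 with shSiva1. The controls ran from -5.65 to -4.17 with a median of -4.90, and shSiva2 from -5.19 to -4.32. Every shSiva1 array exceeded all control and shSiva2 arrays, and its signal was well above background on 4 of 4 shSiva1, 4 of 7 control and 3 of 4 shSiva2 arrays.

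Eno2 rose by 1.31 with shSiva1 (SE 0.25, limma adjusted p = 0.00134) and with shSiva2 its change was near 0 (SE 0.25, adjusted p = 0.999), a difference of 1.31 (SE 0.28, limma adjusted p = 0.00328). With normexp background correction the rise was 0.69 and did not pass (adjusted p = 0.0687), nor did the hairpin difference of 0.64. Of the 8 muscle and neural markers, 5 were measured. Tubb3 had 1.53 with shSiva1 (limma adjusted p = 0.00201) and -1.38 with shSiva2 (limma adjusted p = 0.00706), and Map2 had 1.89 (adjusted p = 0.0269) and -1.17 (adjusted p = 0.245), in the same order as Eno2. Acta1 had the opposite order, with -0.21 (adjusted p = 0.639) and 1.02 and a hairpin difference of -1.23 (limma adjusted p = 0.0199). Snap25 had -0.19 and -0.12 and Gfap 0.02 and 0.22, none past the threshold. Of the 6 measured blood, endothelial and fibroblast markers, 1 rose and 1 fell with shSiva1, and 0 passed with shSiva2. The one that rose was Col1a1, with 2.17 (limma adjusted p = 0.000445), and -0.95 with shSiva2. Col1a1 was well above background on at most 5 of the 15 arrays, so part of its change is against background signal. The summed level of the 8 muscle and neural markers, in multiples of the array's 75th percentile, ran from 6.68 to 9.62 on the controls, from 6.34 to 8.41 with shSiva1 and from 6.82 to 7.58 with shSiva2, and Snap25 alone made up at least 90.9% of it on every array. The other 7 markers summed to 0.228 to 0.297 on the controls, 0.522 to 0.598 with shSiva1 and 0.127 to 0.277 with shSiva2. The part of these markers in the result was not tested.

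Eno3 fell with both hairpins, by 0.78 with shSiva1 (SE 0.21, limma adjusted p = 0.0143) and by 1.40 with shSiva2 (SE 0.21, limma adjusted p = 0.000405). The difference of the hairpins, 0.62, did not pass (SE 0.24, adjusted p = 0.0847). The fall with shSiva1 was lost without LSZ4 shSiva1 replicate 1 (adjusted p = 0.0725) and with 8 group means (adjusted p = 0.0777). Eno1, the ubiquitous enolase, had changes of -0.19 and -0.14, and neither passed.

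Pgk1, which makes the first ATP of the pathway, had log2 values from 8.003 to 8.65 on the controls and 7.63, 7.56, 7.76 and 7.88 with shSiva2, lower than every control. It fell by 0.57 with shSiva2 (SE 0.15, limma adjusted p = 0.0221) and had -0.27 with shSiva1 (SE 0.15, adjusted p = 0.197). The fall did not pass in 8 of 28 alternatives: without any 1 of the 4 shSiva2 arrays (adjusted p up to 0.0827), without both LSZ4 shGFP arrays (0.0582), with normexp background correction (0.0551), with the random block (0.073) and with 8 group means (0.209). The file places this probe on chromosome 3 of mm9, whereas the gene lies on the X, so which locus it reads is uncertain. Gapdh, Pgam1 and Pkm2, each by its brightest probe, had changes between -0.37 and -0.02 with either hairpin, none past the threshold. Over all Gapdh probes the change ran from -0.65 to -0.16 with shSiva1 and from -0.26 to 0.05 with shSiva2. The largest of these, on the dimmest Gapdh probe with shSiva1, had a limma adjusted p of 0.052. Some of the Gapdh probes carry the accession of a noncoding copy or lie on other chromosomes, so their signal is uncertain too.

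For pyruvate and lactate handling outside the carriers, no gene passed with either hairpin. Ldha, which reduces pyruvate to lactate, had -0.25 and -0.08. Dimmer Ldha probes gave -0.40 and -0.44 with shSiva1 and -0.39 and -0.44 with shSiva2, none past the threshold. Pdk1, the kinase that shuts pyruvate dehydrogenase, had -0.36 (SE 0.15, adjusted p = 0.0839) and -0.07, and Pdha1, a subunit of that dehydrogenase, had -0.10 and 0.23.

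In the pentose phosphate pathway Rpia, ribose phosphate isomerase, fell with shSiva1 and not with shSiva2. Its values ran from 1.84 to 3.19 with a median of 2.35 on the controls, from 1.27 to 2.17 with shSiva1 and from 2.54 to 2.97 with shSiva2. The fall was 0.76 (SE 0.22, limma adjusted p = 0.019), the change with shSiva2 was 0.21 (SE 0.22, adjusted p = 0.651), and the hairpins differed by -0.97 (SE 0.25, limma adjusted p = 0.0108). The fall was lost in 4 of 28 alternatives: without LSZ4 shSiva1 replicate 1 (adjusted p = 0.0956), without both LSZ4 shGFP arrays (0.058), with the random block (0.0587) and with 8 group means (0.116). The group means also ended the call on the hairpin difference (adjusted p = 0.0847).

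Pgd, the dehydrogenase that yields NADPH and pentose, ran from 5.34 to 6.10 with shSiva1 and from 5.98 to 7.11 with shSiva2. The difference of -0.78 passed narrowly (SE 0.26, limma adjusted p = 0.0487) and was lost in 11 of the 15 fits that left out 1 array. Pgls, the lactonase, had -0.60 (SE 0.25, adjusted p = 0.0892) and -0.20. Tkt and Taldo1 of the nonoxidative branch had changes between -0.27 and 0.18.

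Within each line the hairpins were compared together with the controls. In LSZ2, 0 of 31 genes passed in limma, against 0.939% of all genes tested, with 2 at an unadjusted p under 0.05. In LSZ4, 1 of 31 passed, against 4.57% of all genes (2.37% higher and 2.2% lower): Eno3, with a change of -1.22 (SE 0.29, limma adjusted p = 0.0283) beside -0.93 (SE 0.31, adjusted p = 0.243) in LSZ2. The LSZ4 call was lost without each of 5 arrays: LSZ4 shGFP replicates 1 and 2, LSZ4 shLacZ replicate 2, LSZ4 shSiva1 replicate 1 and LSZ4 shSiva2 replicate 1 (adjusted p up to 0.095). Without LSZ4 shLacZ replicate 1, 12 genes passed in LSZ4, 11 of them lower, against 26.4% of all genes in that fit. The test of the difference between the lines called 0 of 31 genes, and 0% of all genes, with 0 of the 31 at an unadjusted p under 0.05.

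In LSZ2, Pfkfb3 had every shSiva array above every control, as for 9.02% of all genes tested. Eno3, Pfkl and Pdk1 had every shSiva array below, as for 11.5% of all genes. In LSZ4 0 of the 31 genes separated, above or below, as 3.54% and 3.85% of all genes did. In both lines at once 0 of the 31 separated, beside 2.51% of all genes above and 2.04% below.

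Set against each control hairpin, the shSiva arrays gave different counts. Against shGFP, whose cells shared the puromycin selection, 5 of 31 genes passed, against 20.5% of all genes tested (7.15% higher and 13.3% lower). Pfkfb2 rose by 0.93 (SE 0.24, limma adjusted p = 0.0167) and Pfkfb3 by 0.78, and Eno3 fell by 1.33, Pfkl by 0.94 and Pgk1 by 0.54. In a fit of every probe, a dimmer Hk1 probe passed with -0.66 (limma adjusted p = 0.0443), beside -0.29 for the probe used. The dimmest Gapdh probe also passed there, with -0.73 (limma adjusted p = 0.0422), beside -0.39 for the probe used. Against shLacZ 3 of 31 passed, against 11.2% of all genes (6.77% higher and 4.47% lower): Pfkfb3 rose by 0.60, Eno2 rose by 0.83 and Eno3 fell by 0.91. The Eno2 call was lost in 10 of 26 alternatives. With the mean of all probes neither Pfkfb3 call passed, at 0.35 against shGFP (adjusted p = 0.284) and 0.43 against shLacZ (adjusted p = 0.247). Leaving out both LSZ4 shGFP arrays left 1 shGFP array, and 0 genes passed against it, beside 1.35% of all genes, with Pfkfb3 at 0.83 (adjusted p = 0.108). Without LSZ2 shGFP replicate 1, 18 passed, against 37.2% of all genes. Pfkfb2 had -3.54 and -3.48 on the LSZ4 shGFP arrays, below all other arrays, whose values ran from -2.80 to -1.56. The controls themselves differed at 0 of 31 genes in limma, against 0.00437% of all genes tested, with 4 at an unadjusted p under 0.05.

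Between the lines 8 of 31 genes (25.8%) passed, all higher in LSZ4. Most of these calls were lost under quantile normalization and in some of the fits that left out 1 array. The share over all genes tested in limma was 21.7% (14.6% higher and 7.12% lower). The 8 genes were Hk1, Pfkm, Gapdh, Eno1, Pkm2, Ldha, Pgls and Tkt. Over 28 alternatives the call held in 28 for Pfkm, 26 for Tkt, 20 each for Pkm2 and Pgls, 13 for Hk1, 12 for Ldha, 11 for Eno1 and 7 for Gapdh. Of the 15 fits that left out 1 array, the call was lost in 12 for Gapdh, 11 for Eno1, 10 for Ldha and 9 for Hk1. It was lost in 3 of those fits for Pgls, 2 for Pkm2 and 0 for Pfkm and Tkt. The median difference of the 31 genes was 0.43 on the log2 scale, beside 0.23 over all genes. Pfkm, the muscle-type phosphofructokinase subunit, had the largest difference of the 31, 1.03 (SE 0.17, limma adjusted p = 0.00115). Tkt, transketolase, differed by 0.87 (SE 0.19, limma adjusted p = 0.00936), Pgls by 0.83 and Pkm2 by 0.70.

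The brightest probes of the set, those of Gapdh, Aldoa, Ldha and Eno1, were at or above the 99th percentile of all genes in mean value. Their signal before scaling varied by 1.15-fold to 1.41-fold over the 15 arrays, while the 75th percentile used for scaling varied by 2.40-fold and was lowest on the LSZ4 shGFP arrays. All 230 genes at or above that percentile had a median difference between the lines of 0.57, and 63.0% of them passed as higher. Under quantile normalization 3 of 31 genes passed. Gapdh (-0.059), Eno1 (-0.0080) and Ldha (-0.046) had small differences of the other sign that did not pass (limma adjusted p = 0.444, 0.952 and 0.637). That normalization gives all arrays the same distribution, which leaves the brightest probes little room to differ. Pfkm (0.75), Pgls (0.58) and Tkt (0.35) still passed. With the array's 75th percentile as a term, a setting added after the data were seen, 1 gene passed, Pfkm with 0.57 (limma adjusted p = 0.0126).

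**Figure D4:**
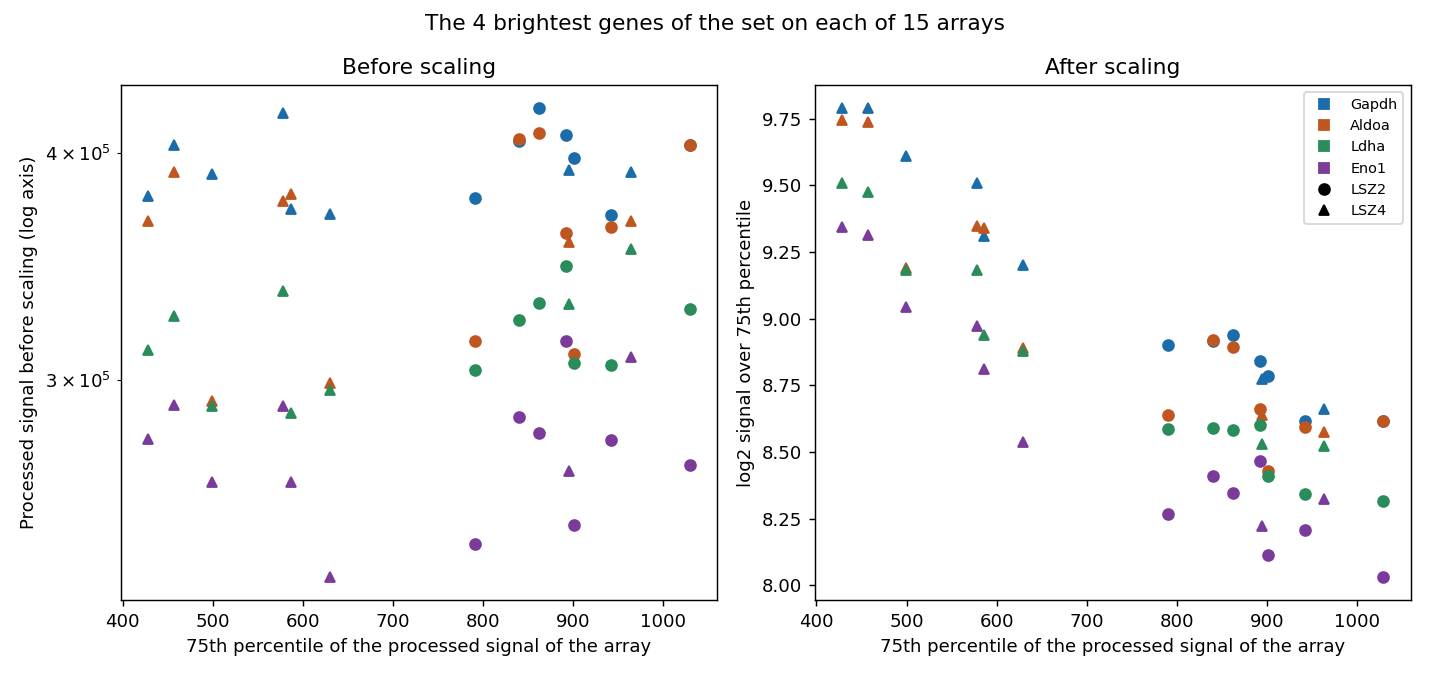
Signal of Gapdh, Aldoa, Ldha and Eno1 on each of the 15 arrays against the 75th percentile of the array, before scaling on a log axis (left) and as the scaled log2 value (right); circles are LSZ2 and triangles LSZ4. Before scaling the signal varies by at most 1.41-fold, and after scaling the values are highest on the arrays with the lowest 75th percentile.

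The other genes of sugar metabolism and its control were examined from lists. In the pooled comparison their counts stand beside 9.97% of all genes tested (4.29% higher and 5.68% lower). Of 41 measured of 50 other sugar pathway genes, 1 rose and 3 fell in the pooled comparison: Pdp2, a pyruvate dehydrogenase phosphatase, had 0.56 (limma adjusted p = 0.0115), G6pdx, which opens the pentose phosphate pathway, -0.76 (adjusted p = 0.0289), Fbp2, a gluconeogenic phosphatase, -1.10 (adjusted p = 0.0276) and Ldhc, the testis lactate dehydrogenase, -0.88 (adjusted p = 0.036). The Ldhc signal stood well clear of background on all 7 controls but only 4 of 8 shSiva arrays; its change was -0.09 with normexp background correction (adjusted p = 0.906) and did not pass in 14 of 27 alternatives. Of 22 transcriptional regulators, 0 rose and 3 fell: Egln3, a HIF prolyl hydroxylase that is itself induced by HIF, by 1.18 (adjusted p = 0.00114), Keap1 by 0.64 and Mlxip by 0.59. Over 28 alternatives the call was lost in 17 each for Keap1 and Mlxip, 10 for G6pdx, 9 for Fbp2, 3 for Pdp2 and 1 for Egln3. Mlxip had -0.30 with the mean of all probes (limma adjusted p = 0.31). Of 20 measured of 22 hypoxia targets outside glycolysis, 1 rose and 0 fell: Car12, a carbonic anhydrase, by 2.86 (adjusted p = 0.0226), or 1.69 with normexp background correction (adjusted p = 0.0336), and the call was lost in 3 of 27 alternatives. Car12 was well above background on the 3 LSZ2 controls and on 0 of the 4 LSZ4 controls, so part of that change is against background signal. Of 16 TCA cycle genes, 0 rose and Dlst fell, by 0.68 (adjusted p = 0.0364), a call lost in 14 of 28 alternatives. The median changes of these lists were -0.15, -0.08, -0.03 and -0.18, beside -0.12 over all genes tested.

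Between the hairpins, shSiva1 against shSiva2, the limma test called 5 of the 41 sugar pathway genes higher and 10 lower, 5 of the 22 regulators higher and 3 lower, and 0 of the 16 TCA cycle genes higher and 2 lower, beside 9.43% and 10.1% of all genes tested. Of the 20 hypoxia targets 3 were higher and 3 lower. Car12 (2.98), Loxl2 (1.45), a collagen cross-linking enzyme, and Ddit4 (0.72), an inhibitor of mTORC1 signalling, were higher with shSiva1. Ndrg1 (-1.06), Stc2 (-1.45) and P4ha1 (-0.88), a collagen prolyl hydroxylase subunit, were lower.

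The 9 list genes called in the pooled comparison were Pdp2, G6pdx, Fbp2, Ldhc, Egln3, Keap1, Mlxip, Car12 and Dlst. Without both LSZ4 shGFP arrays, only Pdp2 and Egln3 of these still passed in that comparison. Among the regulators and their targets, Txnip and Arrdc4, arrestin genes that report on glucose and sugar phosphate through the Mondo factor encoded by Mlxip, split by hairpin as Slc16a3 did. Txnip rose by 0.70 with shSiva1 (SE 0.23, limma adjusted p = 0.0374) and fell by 1.72 with shSiva2 (SE 0.23, limma adjusted p = 0.000157), a difference of 2.43. The rise did not pass in 12 of 28 alternatives. Arrdc4 rose by 1.57 and fell by 1.57, a difference of 3.14, and was well above background on 2 of 4 shSiva2 arrays. With normexp background correction its shSiva2 change was -0.76 and did not pass (adjusted p = 0.0862), and its hairpin difference was 1.63. Both genes were named after their values were seen.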

How the data were processed

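Total RNA (200 ng, Cy3 label) was measured on 15 Agilent 1-colour arrays. Per the file headers, the authors extracted spot intensity with Feature Extraction 10.7.3.1, with spatial and multiplicative detrending on, and probe positions are on mm9. The deposited value table holds log2 values, which matched the log2 signal less the array's 75th percentile with each probe centred on its median, and served as an alternative. Here, control spots and outlier-flagged spots were left out, spots of a probe averaged, and log2 signal reduced by log2 of the array's 75th percentile. A probe was kept if 4 or more arrays had it well above background and no more than 3 lacked it. Each gene was represented by its probe of highest mean value. Linear models were fitted with limma (version 3.58.1) under R (version 4.3.3), with tables handled by the data.table package (version 1.17.8), on all genes, line as a term, Benjamini-Hochberg adjusted p of 0.05. The members, lists and comparisons were chosen with earlier results of these data known. Values were given for Siva1, for up to 10 called members of smallest p per direction in the pooled comparison and 4 in every other, and for up to 4 called genes per other list; further genes were chosen after their values were seen. Whether replicates were separate cultures is not stated in the labels; p-values then measure the spread between these samples, and the number of arrays limits precision. shGFP1 and shGFP2 were read as replicates of 1 hairpin. The scripts were tested on simulated data. Alternatives covered normalization, background correction, filters, probe averaging, blocks and leaving out each array.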

Additional observations from a re-analysis of the deposited data

Results flagged for a closer look

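The test of shSiva1 against shSiva2, which compares the effects of both hairpins under the same contrast, differed for 9 genes of the set. On the log2 scale the differences were 3.47 for Slc16a3, 1.31 for Eno2, 1.29 for Pfkfb4, 1.04 for Pfkfb3, 0.84 for Pfkp, -0.78 for Pgd, -0.85 for Pfkl, -0.90 for Pfkfb1 and -0.97 for Rpia. No sample stood apart from its group in 93 checks of groups of 4 to 10 arrays, of which chance would mark about 1 in 20. Each line and hairpin held only 1 or 2 arrays, so the groups checked mixed lines or hairpins. Such checks can miss an array that stood apart within its own line and hairpin.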

How the results depend on the processing

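Of 60 single-gene results, 17 kept their direction and side of the threshold in every alternative run, among them the shSiva2 fall and hairpin difference of Slc16a3, the shSiva1 changes of Pfkfb3, Pfkfb4 and Pfkl, and the hairpin difference of Pfkfb1. The line differences of Gapdh (-0.059), Eno1 (-0.0080) and Ldha (-0.046) changed sign under quantile normalization, none past the threshold (limma adjusted p = 0.444, 0.952 and 0.637). That of Gapdh (-0.030) also changed sign with array brightness as a term, and the cause was not tested. Counts of members called, in the pooled comparison (1), were 3 under quantile normalization, 2 under median scaling, 2 with detection on all 15 arrays, 3 with the replicate block, 0 with 8 group means and 6 with brightness as a term. In LSZ2 (0), brightness as a term gave 2. In LSZ4 (1), the count was 0 under quantile normalization, with no filter, with a random block and without both LSZ4 shGFP arrays, and 2 with brightness as a term. For shSiva1 (9), group means gave 5. For shSiva2 (4), quantile normalization gave 11, normexp 2, the random block 2, group means 2 and brightness 19. For shSiva1 against shSiva2 (9), quantile normalization gave 20, group means 5 and brightness 20. Against shGFP (5), the replicate block gave 17 and leaving out both LSZ4 shGFP arrays 0. Against shLacZ (3), quantile normalization gave 5 and brightness 16. Between lines (8), quantile normalization gave 3, normexp 2, the random block 2, group means 1, leaving out both LSZ4 shGFP arrays 2 and brightness 1. Leaving out each array in turn gave 1 to 3 pooled, 0 to 0 in LSZ2, 0 to 12 in LSZ4, 6 to 12 for shSiva1, 2 to 5 for shSiva2, 7 to 11 between hairpins, 2 to 18 against shGFP, 2 to 4 against shLacZ, 0 to 0 between control hairpins, 0 to 0 for the difference of lines and 2 to 18 between lines. The highest counts came without LSZ4 shLacZ replicate 1 (LSZ4 and lines) and without LSZ2 shGFP replicate 1 (shGFP). Over all genes, the pooled count of 2285 (43.0% higher) was 816 with normexp (53.6% higher), 957 with the random block, 292 with group means and 6690 with brightness. The settings without both LSZ4 shGFP arrays and with brightness were chosen after seeing the data. The group means were run for 5 of the comparisons. Genes near background, such as Eno2, are limited by signal. Same-numbered samples did not all deviate together (14 of 21 group pairs over 0.1 in correlation). All 6 pairs within LSZ4 were over 0.1 (0.17 to 0.73), and all 4 values under -0.1 involved LSZ2 shSiva2. Within a line the number also gives the slide column. With the replicate block Pfkl (-0.78, limma adjusted p = 0.0336) and Pgk1 (-0.44, adjusted p = 0.0381) passed in the pooled comparison.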
